A study of Caenorhabditis elegans with 2 samples.

Results

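Ubiquitin and proteasome genes were examined for candidate peaks of tagged F37B4.10 in their promoters. The set holds 68 of the 19973 protein-coding genes of Caenorhabditis elegans, chosen by symbol: 33 genes for proteasome subunits (pas-, pbs-, rpt- and rpn- genes), and 35 others, namely uba-1, the ubc- genes, eel-1, cul-1 to cul-6, the cdc-48 genes and the ufd- genes. Chromatin immunoprecipitation followed by sequencing (ChIP-seq) with an antibody against GFP was done on whole young adult worms, 61 h old and synchronised by starving L1 larvae after bleaching. The strain, OP374, carries the integrated transgene wgIs374 (F37B4.10::TY1 EGFP 3xFLAG, built from the clone P000012_E03), with unc-119(+) as the rescue marker in unc-119(tm4063) worms. The study has 1 group of 2 biological replicates of this 1 strain, so no comparison between conditions exists, and no untagged worms were analysed here.

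Proteins are marked for destruction by ubiquitin. An activating enzyme charges ubiquitin, a conjugating enzyme carries it, and a ligase attaches it to the target. The proteasome then degrades the target: its 19S cap binds, unfolds and feeds in the protein, and its 20S core, a barrel of alpha and beta subunits, cuts it. The AAA ATPase CDC-48, with cofactors such as UFD-1, extracts ubiquitinated proteins from membranes and complexes on the way. In C. elegans the transcription factor SKN-1 raises the expression of proteasome genes when the proteasome is impaired.

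For each gene, the candidate peak with the highest signal was taken whose summit lay from 1000 bp upstream to 200 bp downstream of an annotated start. Candidate peaks came from the authors' ranked list for both replicates together, which holds 115634 of them. Their signal is the authors' own value per peak, on a scale that is not stated, and is used here to describe and rank. The authors also gave each candidate an irreproducible discovery rate (IDR), written as −log10, which measures how well a peak's rank repeats between replicates. A peak is called listed below where it belongs to the authors' conservative list of 843 peaks, each with an IDR of at most 0.01 (−log10 of at least 2). The numbers of reads are unknown.

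Listed peaks stood at 3 of the 68 genes (4.41%): the ubiquitin ligase gene eel-1, the CDC-48 gene cdc-48.1 and the conjugating enzyme gene ubc-6. A listed peak stood in the promoter of 344 of all 19973 protein-coding genes, or 1.72%. None of the 33 proteasome subunit genes had one, and a count of 0 of 33 allows a share of up to 9.09%, so that a share near the 1.72% of all genes was not detectable in a list of this length. The count of 0 rests on the window: with windows from 2000 bp upstream, 2 proteasome genes (pas-5 and pbs-1) had a listed peak and 5 members in all, and with any overlap pas-5 had one. The share over all protein-coding genes was not computed for these wider rules, and the 1.72% applies to the main window only. All 3 listed peaks lay upstream of their gene, between protein-coding genes, and had their own gene's start as the nearest protein-coding start.

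The DNA within 50 bp of these 3 summits is given here because these are the listed peaks within the promoter windows of the 68 genes. It was read from the RefSeq genome WBcel235, which has the coordinates of ce11, on the strand of the gene, 5′ to 3′. Capitals mark matches to the 5 short motifs described further on.
eel-1 (chrIV:3050429-3050529, minus strand): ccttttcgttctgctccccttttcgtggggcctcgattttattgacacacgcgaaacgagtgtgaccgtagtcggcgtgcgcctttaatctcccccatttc
cdc-48.1 (chrII:10563535-10563635, minus strand): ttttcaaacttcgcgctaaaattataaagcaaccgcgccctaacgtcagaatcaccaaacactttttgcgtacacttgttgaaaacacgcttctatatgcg
ubc-6 (chrII:7478863-7478963, plus strand): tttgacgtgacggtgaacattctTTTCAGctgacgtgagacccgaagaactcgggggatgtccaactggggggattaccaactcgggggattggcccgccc

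The sequence at ubc-6 holds the 7 bases GGGGGAT 3 times, a word picked after the sequence was seen. In the sequence within 50 bp of the strongest summit of the 16321 protein-coding genes with a candidate peak, 77 genes (0.472%) had it at least once and 12 (0.0735%) at least 3 times. Of the bases printed, the reference soft-masks 67 at ubc-6 and 53 at eel-1 as repeat or low-complexity sequence, but 0 at cdc-48.1. GC content was 53.5% at eel-1, 40.6% at cdc-48.1 and 57.4% at ubc-6, against a median of 39.6% over the strongest candidate peaks of all protein-coding genes.

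The highest signal among the 68 genes, 213, belonged to eel-1 (WBGene00022069, chromosome IV, 3032713 to 3050104), which encodes a large HECT-type ubiquitin ligase, the homologue of mammalian HUWE1. Its peak ran from 3050440 to 3050525, with the summit 375 bp upstream of a start, and its −log10 IDR was 4.12. The peak was 86 bp wide, whereas 99.99% of the candidates of the joint ranked list were 276 bp wide. Whether the width bears on its signal was not tested. In the replicates' own ranked lists the signal was 104.7 in replicate 1 and 106.2 in replicate 2, and the 2 summits lay 2 bp apart. The 2 values were thus close at eel-1, but the replicates' lists were called separately and are not known to share a scale. The joint value was 1.01 times the sum of the 2 at eel-1. Over members with both values this ratio ran from 0.077 at rpt-5 to 1.28 at ufd-3, where the replicates' summits lay away from the joint one. Joint and single values are thus not known to share a scale. Of the 16321 protein-coding genes with a candidate peak in their promoter, 4 had one stronger than that of eel-1.

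The second highest signal, 163, belonged to cdc-48.1 (WBGene00007352, chromosome II, 10560036 to 10563407), 1 of a pair of closely related worm genes for the p97 type of AAA ATPase. The peak ran from 10563447 to 10563722, with its summit 178 bp upstream of the start and a −log10 IDR of 3.81. Replicate 1 had a signal of 66.9 and replicate 2 one of 93.4, with summits 1 bp apart. Both replicates therefore placed it at the same position, with the higher value in replicate 2, as in 5264 of the 7963 protein-coding genes with both values. Among all protein-coding genes, 12 had a stronger candidate.

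The paralogue cdc-48.2 (WBGene00008053, chromosome II, 8138496 to 8141230) had a strongest candidate of 34.9, with a −log10 IDR of 0.667, inside its coding sequence. Both replicates had a candidate at this summit, of 20.3 in replicate 1 and 15.6 in replicate 2, and replicate 2 had a stronger one (19.5) 996 bp away. The more distant relative cdc-48.3 had a candidate of 8.66 and none in the list of either replicate. The 3 cdc-48 genes thus span nearly the whole range of the set, with a listed peak at 1 of them.

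The third listed peak, at ubc-6 (WBGene00006703, chromosome II, 7479187 to 7480713), had a signal of 94.4 and a −log10 IDR of 3.23. The gene encodes the homologue of a yeast conjugating enzyme anchored in the endoplasmic reticulum, where it acts on misfolded proteins. The peak ran from 7478775 to 7479050, 274 bp upstream of the start, and lay in the promoter window of the neighbouring gene aka-1 as well. Replicate 1 had a signal of 55.8 and replicate 2 one of 48.6, with summits 138 bp apart. Unlike the peaks of eel-1 and cdc-48.1, it was in neither replicate's own thresholded list. These short lists, of 81 and 99 peaks, reached 43 (0.215%) and 47 (0.235%) of all protein-coding genes in replicates 1 and 2. Among all protein-coding genes, 82 had a candidate stronger than that of ubc-6.

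**Figure D1:**
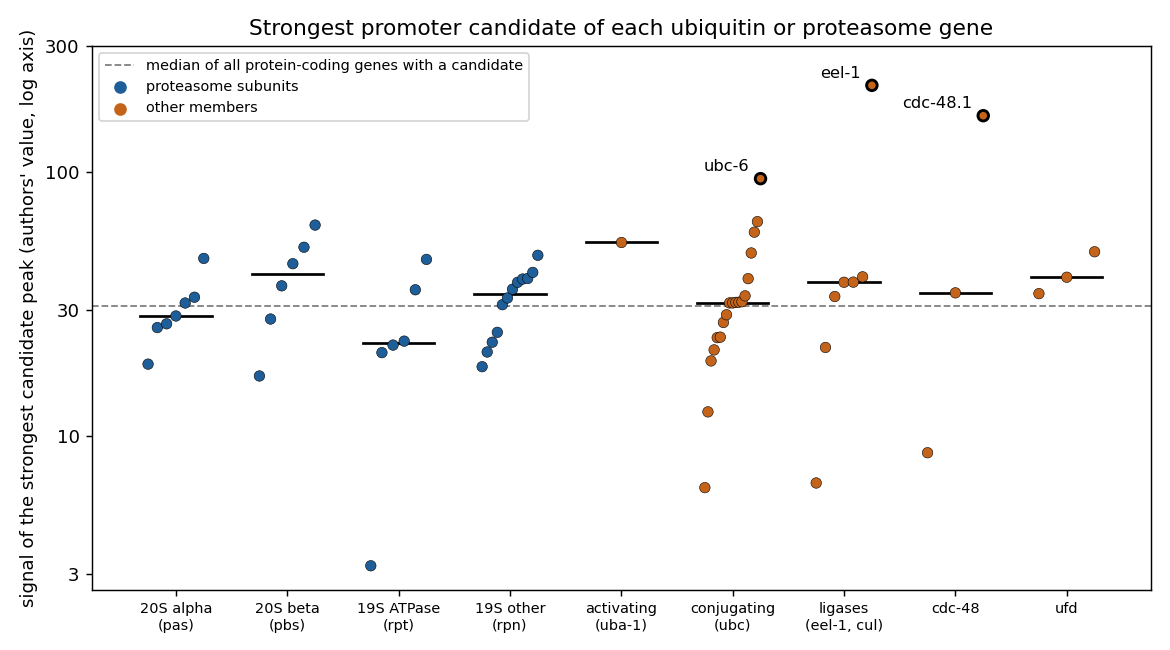
Signal of the strongest candidate peak in the promoter of each gene (points, log axis) by group of genes, with the group's median (bars) and the median of all protein-coding genes with a candidate (dashed line, 31.2). Points with a thick outline are the 3 listed peaks, at eel-1 (213), cdc-48.1 (163) and ubc-6 (94.4); the proteasome subunits reach at most 63.0.

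A candidate peak of any strength was present at 64 of the 68 genes (94.1%), against 16321 of all protein-coding genes (81.7%). It was present at 31 of the 33 proteasome subunit genes and 33 of the 35 others. The 64 genes had 63 distinct candidates, since ubc-21 and ubc-22 shared 1 of 31.96. The 4 genes with none in the joint list used here were pbs-7, rpn-5, ubc-17 and ubc-23. Of these, pbs-7 had candidates in the replicates' own lists (25.8 in replicate 1 and 22.7 in replicate 2), as did rpn-5 (15.0 in replicate 1 and 18.99 in replicate 2), whereas ubc-17 and ubc-23 had none there. In the authors' other joint ranked list each of the 4 had a candidate, with 17.2 at pbs-7, 10.02 at rpn-5, 2.82 at ubc-17 and 20.8 at ubc-23. Conversely, ubc-1, ubc-19 and cul-5, which had a candidate in the list used here, had none in that other list.

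The strongest candidates had a median signal of 31.9 over the 31 proteasome genes and 33.8 over the 33 others, a difference of -1.85, against 31.2 over all protein-coding genes. The lower and upper quartiles were 22.8 and 39.4 for proteasome genes, 23.7 and 40.1 for the others and 22.7 and 41.0 for all protein-coding genes. The groups overlapped throughout this range and differed at the top. There the 3 listed peaks of the other genes and the candidate of ubc-3 (64.9), which was not listed, stood above the highest proteasome gene (63.0). The sign of the difference was not stable: it was 5.55 with windows that began 2000 bp upstream, 2.13 where any overlap with the window counted, and 1.18 where only candidates nearest to the gene's own start counted. It was -7.99 with windows that began 500 bp upstream, -9.06 in replicate 1 alone and -4.86 in replicate 2 alone. A candidate above the median of all protein-coding genes stood at 17 proteasome genes (54.8%) and 22 others (66.7%).

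**Figure D2:**
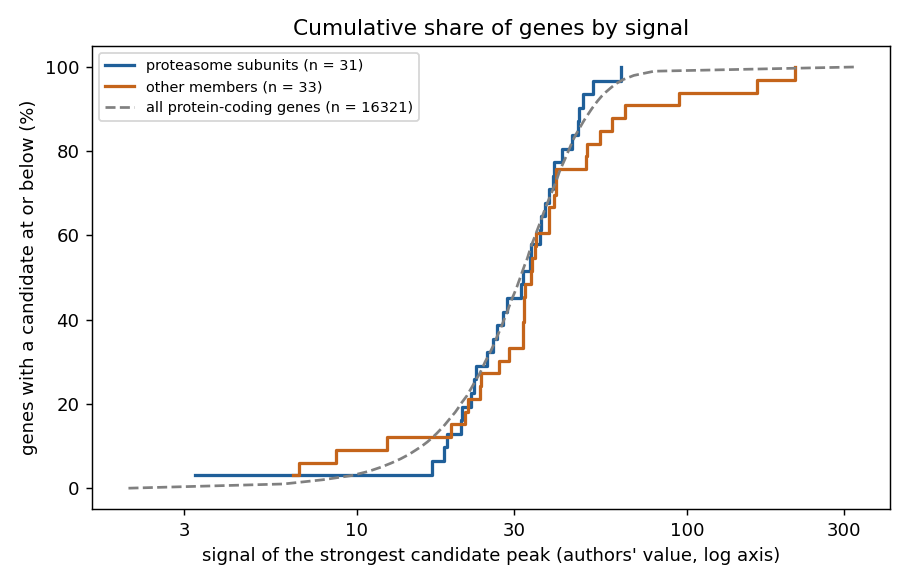
Share of genes (y axis, %) whose strongest candidate peak has a signal at or below the value on the x axis (log axis), for proteasome subunits, for the other members and for all protein-coding genes. The 3 curves cross each other at low signals, and above a signal of about 40 the curve of the other members lies lowest, ending with ubc-6 (94.4), cdc-48.1 (163) and eel-1 (213).

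Within the 20S core, the 7 alpha subunit genes ranged from 18.7 at pas-7 to 47.1 at pas-6, with a median of 28.5. The candidate of pas-6 had a signal of 18.8 in replicate 1 and 24.0 in replicate 2 and lay in an intron of the gene, 164 bp downstream of the start. The beta subunits, which hold the cutting sites, had the higher median of 41.0 over 6 genes, from 16.9 at pbs-3 to 63.0 at pbs-1. Each of these subunit groups is small, and their ranges overlap.

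The strongest candidate of any proteasome gene, that of pbs-1, did not lie at the gene's own start. It lay 951 bp upstream, in coding sequence of K08D12.3, whose start was the nearest, and also in the promoter window of rpi-2. Its signal was 21.2 in replicate 1 and 34.4 in replicate 2, with summits 6 bp apart, and its −log10 IDR was 1.36. The next, also a beta subunit, was pbs-5, which encodes the beta subunit with chymotrypsin-like activity, at 51.9, with 25.8 in replicate 1 and 27.5 in replicate 2 and a −log10 IDR of 1.37. Its summit lay 149 bp downstream of the start, in its own coding sequence. Among the beta subunits, pbs-4 (45.0) and pbs-2 (37.1) followed.

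For the 19S cap, the 6 ATPase genes ranged from 3.24 at rpt-5 to 46.7 at rpt-6, with a median of 22.5, the lowest of the subunit groups. The candidate of rpt-6 lay 632 bp upstream, also within the promoter window of the histone gene his-72, and had 17.1 in replicate 1 and 24.2 in replicate 2. The value of rpt-5 was the lowest of the whole set, although the replicates' own lists held candidates of 14.1 in replicate 1 and 27.7 in replicate 2 elsewhere in its window. At the joint summit replicate 1 had 7.25 and replicate 2 had none. The signal of rpt-3 was 35.8, and rpt-1, rpt-2 and rpt-4 had 22.9, 22.1 and 20.7. Neither replicate's own list held a candidate for rpt-1 or rpt-2.

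The 12 non-ATPase genes of the cap with a candidate had a median of 34.7. Their values ran from 18.3 at rpn-3 to 48.4 at rpn-9, whose summit lay 137 bp upstream of the start, with 26.6 in replicate 1 and 22.1 in replicate 2. Genes for the scaffold subunits rpn-1 and rpn-2 had 24.7 and 38.2. The ubiquitin receptor genes rpn-10 and rpn-13 had 33.4 and 22.7, and rpn-11, which encodes the deubiquitinating subunit of the cap, had 31.5. Neither replicate's own list held a candidate for rpn-13. The signals of rpn-1, rpn-2, rpn-10, rpn-11 and rpn-13 lay between the quartiles of all protein-coding genes (22.7 and 41.0), with rpn-13 close to the lower one.

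The DNA at the candidates of pbs-1 and rpn-9 is shown as that of 2 of the 3 strongest proteasome candidates, for comparison with the 3 listed peaks.
pbs-1 (chrIV:1710646-1710746, minus strand): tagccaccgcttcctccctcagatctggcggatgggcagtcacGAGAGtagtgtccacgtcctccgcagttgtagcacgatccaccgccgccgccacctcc
rpn-9 (chrII:11239006-11239106, minus strand): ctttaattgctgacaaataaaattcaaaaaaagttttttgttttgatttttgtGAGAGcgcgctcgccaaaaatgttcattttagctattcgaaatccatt
With 64.4% GC, the window at pbs-1 was the richest in GC of the set, and that at rpn-9 had 29.7%.

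Among the enzymes, uba-1, which encodes the ubiquitin-activating enzyme, had a candidate of 54.4 with a −log10 IDR of 1.76. Its signal was 26.1 in replicate 1 and 36.7 in replicate 2, and its summit lay 8 bp upstream of 1 of 4 annotated starts, in coding sequence of the gene. In all, 92.6% of the protein-coding genes with a candidate had a weaker one.

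Of the 21 conjugating enzyme genes, 19 had a candidate, from 6.39 at ubc-19 to 94.4 at ubc-6, with a median of 31.96. Below ubc-6 came ubc-3, the homologue of yeast CDC34, at 64.9 (33.7 in replicate 1 and 29.97 in replicate 2 at the joint summit, with a stronger one of 44.3 in replicate 2 that lay 1330 bp away). Then came ubc-12, which conjugates the ubiquitin-like protein NEDD8, at 59.2 (27.6 in replicate 1 and 39.6 in replicate 2). With a −log10 IDR of 1.97, ubc-12 was the member just outside the limit of the list, and ubc-6, at 3.23, the member just inside. The SUMO-conjugating enzyme gene ubc-9 had 49.4 (27.2 in replicate 1 and 24.4 in replicate 2). Other well-studied members had lower values, at 19.3 for the RAD6 homologue ubc-1, 32.1 for ubc-13 and 21.2 for ubc-7.

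The cullins, scaffolds of multisubunit ligases, had no listed peak. The signal was 40.1 at cul-1, 38.3 at cul-2, 38.3 at cul-3, 21.7 at cul-4, 6.66 at cul-5 and 33.8 at cul-6. The lists of both replicates held candidates for cul-1 (19.4 in replicate 1 and 23.0 in replicate 2, 4 and 1 bp from the joint summit) and cul-3 (11.3 in replicate 1 and 23.9 in replicate 2 at the joint summit, with a stronger one of 25.4 elsewhere in replicate 1), but cul-4, cul-5 and cul-6 had none in either. Each cullin gene had less signal than eel-1 in the joint list and, where it had a candidate, in each replicate's list.

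The ufd- genes, named after the ubiquitin fusion degradation pathway, had 40.0 at ufd-1, 34.7 at ufd-2 and 49.9 at ufd-3. UFD-1 is a cofactor of CDC-48, UFD-2 extends ubiquitin chains, and UFD-3 binds CDC-48. At the joint summit of ufd-1 replicate 2 alone had a candidate (29.3), and the strongest of replicate 1 (25.7) lay 851 bp away. At ufd-2 replicate 2 alone had a candidate (25.1), and at ufd-3 the values were 8.80 in replicate 1 and 30.2 in replicate 2. Neither of these 2 lay at the joint summit of ufd-3, from which they were 519 and 843 bp away.

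With the looser IDR limit of 0.05, the strongest candidate of 9 of the 68 genes passed (13.2%), against that of 1301 protein-coding genes (6.51%). Weaker candidates of a window were not counted here, unlike for listed peaks, which counted anywhere in the window. One such candidate, at ubc-8 (22.4, with a −log10 IDR of 1.42), would also have passed. They were 3 proteasome genes (pbs-1, pbs-5 and rpn-6.2) and 6 others (eel-1, cdc-48.1, ubc-6, ubc-12, ubc-3 and uba-1). The candidate of rpn-6.2 had a signal of 39.5 and lay in an intron of the gene, with 39.3 in replicate 2. Replicate 1 had no candidate at that summit, and its strongest in the window (20.05) lay 182 bp away. In the authors' other joint thresholded list, of 947 peaks, the same 3 genes eel-1, cdc-48.1 and ubc-6 had a peak, against 375 protein-coding genes (1.88%).

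The replicates' own lists covered the set in part. Replicate 1 had a candidate in the promoter of 45 of the 68 genes (66.2%, against 55.3% of all protein-coding genes) and replicate 2 of 49 (72.1%, against 59.1%). Neither replicate had one for 12 of the 68 genes, against 5102 of the 19973 protein-coding genes. In all, 38 genes had one in both: 21 of the 33 proteasome genes (63.6%) and 17 of the 35 others (48.6%), against 39.9% of all protein-coding genes. Over these 38 genes Spearman's rho between the replicates was 0.43, and it was 0.30 over the 7963 protein-coding genes with both values. The points share libraries, depth and base composition, and the values are descriptions. Within the proteasome genes rho was 0.095, and within the others 0.73. The others include the listed genes eel-1, cdc-48.1 and ubc-6, which had the highest values of the set in both replicates. A rho without these genes was not computed. The values compared often belong to different peaks of a window. At the joint summit itself, 24 members had a candidate in both replicates, with a rho of 0.62 over all of them, 0.24 over 12 proteasome genes and 0.85 over 12 others. For 16 of the 64 members with a joint candidate, 6 proteasome genes and 10 others, neither replicate had a candidate at the joint summit. These counts at the joint summit were not made for all protein-coding genes. In 27 of the 38 genes the value of replicate 2 was the higher, against 5264 of the 7963 protein-coding genes. In 17 of the 38 (44.7%) the 2 summits lay within 138 bp of each other, against 48.3% of the protein-coding genes, so the members were close to all genes in both.

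**Figure D3:**
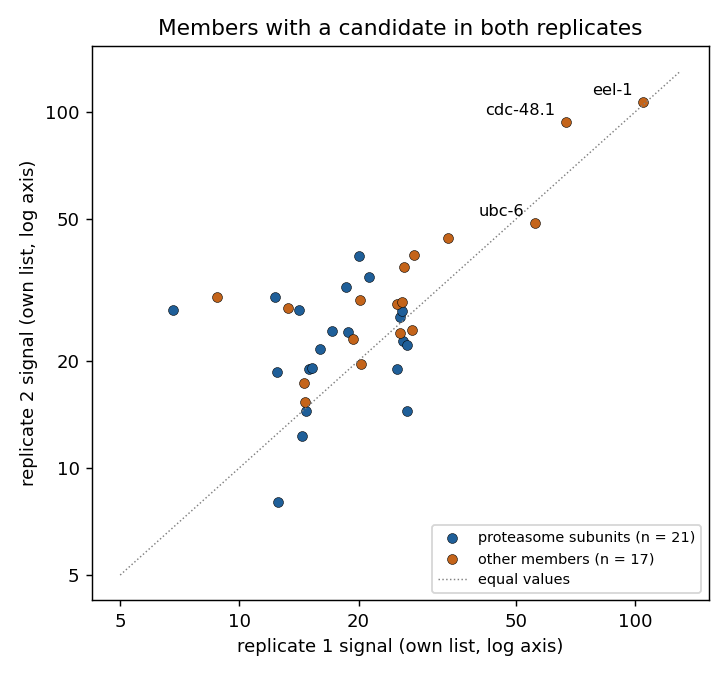
Signal of the strongest candidate peak in each replicate's own list, replicate 1 on the x axis and replicate 2 on the y axis (log axes), for the 21 proteasome genes and 17 other members with a candidate in both; the dotted line marks equal values, and the 2 summits of a point need not be the same. The listed genes eel-1 (104.7 and 106.2), cdc-48.1 (66.9 and 93.4) and ubc-6 (55.8 and 48.6) stand apart from the rest, which lie below 34 in replicate 1.

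The candidates of proteasome genes lay farther from the gene's start than those of the others. The median distance was 589 bp over the 31 proteasome genes and 261 bp over the 33 others, against 361 bp over all protein-coding genes. A summit within 200 bp of the start was found at 8 proteasome genes (25.8%) and 16 others (48.5%), against 36.5% of all protein-coding genes. The gene's own start was the nearest protein-coding start for 16 of 31 proteasome genes (51.6%) and 26 of 33 others (78.8%), against 82.4% of all protein-coding genes. These shares describe the genes and were not tested.

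For 15 proteasome genes the summit lay inside another protein-coding gene, as for 8 of the others. Examples were pas-1 (31.9, in coding sequence of rpoa-12), rpn-3 (18.3, in hsp-110), rpn-12 (20.8, in rad-23) and pbs-3 (16.9, in ulp-2). It lay inside the gene itself for 8 proteasome genes and 9 others, and between protein-coding genes for 8 and 16. These places were not determined for all protein-coding genes, so whether the counts are unusual is not known. Another protein-coding gene had the same candidate in its window for 18 proteasome genes (58.1%) and 12 others (36.4%), against 21.0% of all protein-coding genes, so that for these genes the candidate cannot be assigned to 1 promoter. Proteasome genes whose own start was nearest had a median signal of 36.6, and those with another gene's start nearest 25.8. The same medians were 34.2 and 31.96 for the other members, and 31.2 and 31.4 for all protein-coding genes.

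**Figure D4:**
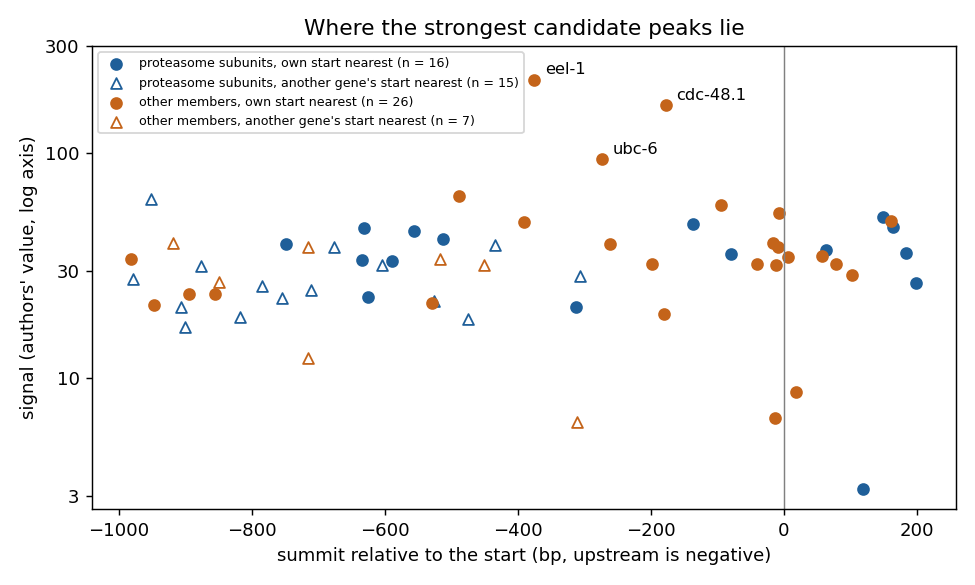
Signal of the strongest candidate peak (y axis, log axis) against the position of its summit relative to the start (x axis, bp, upstream negative) for 31 proteasome genes and 33 other members. Filled circles have the gene's own start as the nearest protein-coding start (16 proteasome genes and 26 others) and open triangles another gene's; the 3 listed peaks lie 178 to 375 bp upstream.

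Genes with several starts have longer windows. The mean window was 1314 bp for proteasome genes and 1472 bp for the others, against 1453 bp for all protein-coding genes, and the mean number of candidates in it was 2.00 for proteasome genes and 1.97 for the others, against 1.70. Genes for tRNA, snRNA or snoRNA were within 200 bp of the strongest summit at 0 of the 64 genes, against 192 (1.18%) of all protein-coding genes. The reference soft-masks the summit of 8 proteasome genes (25.8%) and 13 others (39.4%), against 25.05% of all protein-coding genes. The genes lay on all 6 chromosomes, with 16 each on I and II and 4 on X, all of these ubc- genes.

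A set of 5 short motifs was searched on both strands within 50 bp of each strongest summit. The core of the SKN-1 site, GTCAT, was found at 5 of 31 proteasome genes (16.1%) and 1 of 33 others (3.03%), against 14.4% of all protein-coding genes. The genes were pas-1, pas-6, pbs-4, rpn-1, rpn-12 and uba-1. The E-box CACGTG was found at 0 proteasome genes and 3 others (9.09%; ubc-14, ubc-15 and ufd-2), against 2.44% of all protein-coding genes. The GATA site GATAA was found at 29.0% of proteasome genes and 24.2% of the others, against 19.03% of all. The splice acceptor word TTTCAG was found at 19.4% of proteasome genes and 36.4% of the others, against 18.5% of all. The repeat word GAGAG was found at 12.9% of proteasome genes and 12.1% of the others, against 16.2% of all. Of the 3 listed peaks only that of ubc-6 held any of the 5 motifs, a TTTCAG. A match describes the letters and is not a binding site.

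The wider pathway was described with 83 further genes of ubiquitin itself, cullin partners, other ligases, deubiquitinases, proteasome regulators and cofactors of CDC-48. None had a listed peak in its promoter window, where a count of 0 of 83 allows a share of up to 3.61%. In the authors' other joint list, 1 did: csn-1, which encodes a subunit of the signalosome that removes NEDD8 from cullins, at 72.1 (22.2 in replicate 1 and 45.2 in replicate 2), 163 bp downstream of the start and also in the window of phf-14. A candidate of any strength was present at 67 of the 83 (80.7%), against 81.7% of all protein-coding genes, with a median signal of 36.1, against 31.2 for all protein-coding genes. After csn-1 came the deubiquitinase gene usp-4 at 62.9, the ligase gene herc-1 at 58.7 and skn-1 at 57.4 (24.4 in replicate 1 and 25.4 in replicate 2). The polyubiquitin gene ubq-1 had 41.0, and a listed peak of 51.5 lay outside its window in an exon of the gene, beyond the coding sequence, nearest to the start of F25B5.5. The signal of ubq-2 was 31.4, while the CDC-48 cofactor genes npl-4.1 and npl-4.2 had no candidate.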

How the data were processed

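The authors deposited peak lists in ce11 coordinates. Filtered alignments and a control were their inputs, per the README file of each sample. Aligner, peak caller and depth: not given in the sources used here. The deposited signal per peak and −log10 IDR were taken unchanged, and 16 further value columns of the joint ranked lists, which carry no sample name, were left aside. All intervals of the joint lists lay within the chromosomes of WBcel235. Genes and 29314 starts of protein-coding transcripts came from Ensembl release 115. Ties of signal within a window went to the summit nearest to the start.

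All results are descriptions, with no test: 1 group of 2 replicates allows none. The members and lists were chosen with earlier results of these data known. Named were members with listed peaks, the 12 highest signals, the extremes of each group, members without candidates and all cullin, cdc-48 and ufd- genes; further genes were chosen after their values were seen. A listed symbol of the wider pathway, psmd-10, matched no gene. The assignment of summits was tested on simulated data. Alternatives were other lists, single replicates, windows, starts and rules of assignment. Calculations used pandas 2.3.3, numpy 2.4.6 and scipy 1.17.1 under Python 3.11.15, and figures matplotlib 3.10.9. Counts of genes carry no error from replicates, and limits on shares cover counting error only.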

Additional observations from a re-analysis of the deposited data

How the results depend on the processing

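Listed peaks stood at eel-1, cdc-48.1 and ubc-6 under each joint-list alternative run, and at eel-1 and cdc-48.1 alone in the list of each single replicate. With windows from 2000 bp upstream, 5 members had one, pas-5 and pbs-1 added, and the median signal was 38.3 over all members and 39.5 over proteasome genes. With any overlap, 4 had one, pas-5 added. The share over all protein-coding genes was not computed for these alternatives, so these counts have no background beside them. With windows from 500 bp upstream, the median of proteasome genes was 24.2. The difference of medians, proteasome minus others, was -7.99 with windows from 500 bp, but 5.55 with windows from 2000 bp, 2.13 with any overlap and 1.18 with the nearest start only. The cause of these changes was not tested. In single replicates the medians ran from 20.05 to 24.2 for all members, 16.01 to 22.6 for proteasome genes and 25.1 to 27.4 for the others, and their difference from -9.06 to -4.86. The signal ran from 104.7 to 106.2 at eel-1 and from 66.9 to 93.4 at cdc-48.1 there. Signals of single replicates are not known to be on the scale of the joint list, so they are not to be set against its values. Leaving out candidates near tRNA, snRNA or snoRNA genes changed no value. No paired analysis was possible because there is 1 group. The unknown depth, the unstated scale and the lack of untagged worms among the data analysed limit all values.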

Other observations

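Some listed peaks lay outside the promoter windows, at up to 3554 bp from the start of a proteasome gene for those named here. The nearest summit lay 1053 bp upstream of pas-5 (signal 69.7, chromosome I, 10565159 to 10565434), between protein-coding genes and with pas-5 as the nearest protein-coding start; its interval reached into the window. Others lay 1340 bp downstream of the start of pbs-2, nearest to the start of the tubulin gene tba-2 (97.6), and 1541 bp upstream of pbs-1, in coding sequence of rpi-2 (71.1). One of 86.2 lay in the coding sequence of rpn-1, 2211 bp downstream of its start, with T22D1.8 as the nearest start. A strong listed peak (172) lay 3554 bp upstream of rpn-11, nearest to K07D4.2. Over all 33 proteasome genes the median distance from a start to the nearest listed peak was 36515 bp, against 33502 bp for the other members and 46233 bp for all protein-coding genes.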
